A study of Arabidopsis thaliana with 4 samples.

Results

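Nuclear genes that build the photosynthetic membrane and make chlorophyll were read in whole Arabidopsis thaliana seedlings with and without EMF2, a subunit of Polycomb repressive complex 2. Members were taken by symbol from the platform's annotation: nuclear genes named as subunits of the photosystems and antennae (PSA, PSB, LHCA, LHCB, PPL), of the chloroplast NDH complex (PNS), of tetrapyrrole synthesis (POR, CHL, HEM, GUN), of protein import (TIC, TOC), of plastid proteases (CLPP, CLPR, FTSH) and as sigma factors (SIG), without PSBY and the 3 LHCB4 genes. The rule found 15 genes of 13217 nuclear genes with a single-gene probe set, and each had 1 probe set. They were 2 photosystem I genes, 2 photosystem II genes, 1 Clp protease gene and 10 tetrapyrrole genes. No antenna, NDH, import or sigma factor gene was named by the rule, and many well-known genes of these families were not analysed here because the annotation used names no probe set for them.

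The 4 groups were WT of the Columbia ecotype, the mutant emf2, and each of these backgrounds harboring the Brassica oleracea transgene 35S::BoEMF2.1, called transWT and rescued emf2. The 35S promoter drives strong expression in nearly all plant tissues. All seedlings were 7 days old and came from sucrose plates kept at 21 °C in short days (8 h light, then 16 h dark); transWT and rescued emf2 plates also held hygromycin, so the transgene and the antibiotic cannot be told apart. The emf2 allele, the number of transgenic lines and the number of seedlings in an extract are not stated in the labels. A single Affymetrix array with 22810 probe sets stands for each group. Without replicates no difference below carries a p-value, and its variation between plantings cannot be estimated. Because RNA came from whole seedlings, fewer green cells and less of a transcript in each cell cannot be told apart.

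Photosystems I and II hold chlorophyll on proteins of which the plastid genome encodes the core and the nucleus many of the smaller subunits. Chlorophyll is made inside the plastid by nuclear-encoded enzymes, along a tetrapyrrole route that it shares with heme and that branches where magnesium or iron is inserted. In seedlings these nuclear genes respond to light and to the state of the plastid, and the light-dependent step catalysed by protochlorophyllide oxidoreductase is needed for greening.

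Signals are MAS5 intensities on a linear scale after the arrays were scaled to one trimmed mean. A floor of 87.6, the 40th percentile over all arrays, marked dim probe sets, and a difference was counted from 2-fold upward. From 43 genes with several probe sets, the measurement error (SD) of a log2 ratio was estimated at 0.27 to 0.38 over the comparisons, with differences between plantings left out. Of the 15 members 12 were above the floor on every array. The other 3 were below it on every array, and their values have no order: hemb2, a second gene for the enzyme that makes porphobilinogen, lay between 29.3 and 60.2, HEMA3, of the glutamyl-tRNA reductase family, between 3.80 and 38.2, and hemf2, named for coproporphyrinogen oxidase, between 2.70 and 44.4. EMF2 has no probe set named here, so the genotypes were not checked by its signal.

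The arrays differed at high signal. The brightest probe set read 35035 in transWT and 35621 in rescued emf2, but 23755 in WT and 24807 in emf2. Over 176 probe sets with a mean above 10000, the median log2 ratio was 0.35 in transWT over WT and 0.41 in rescued emf2 over emf2, while it was -0.05 in emf2 over WT and 0.01 in rescued emf2 over transWT. All 4 photosystem members belong to this range of signal.

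As scaled here, the photosystem genes were lower in emf2 than on any other array and higher on both transgene arrays than in WT; under other scalings this order changed for PSAE-1, PSAN and PSB27, as given with the comparisons. PSAE-1, a stromal subunit of photosystem I near the ferredoxin docking site, read 14561 in WT, 13639 in emf2, 18640 in transWT and 17075 in rescued emf2. PSAN, a lumenal photosystem I subunit, read 13327 in WT, 11908 in emf2, 16215 in transWT and 16836 in rescued emf2. For both photosystem I genes emf2 lay within 1.12-fold of WT, and all 4 arrays lay within 2-fold of each other.

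PSBW, a small membrane subunit of photosystem II, had a signal of 11685 in WT, 10066 in emf2, 15627 in transWT and 15633 in rescued emf2. PSB27, a lumenal factor of photosystem II assembly and repair, had 11055 in WT, 7112 in emf2, 14511 in transWT and 12883 in rescued emf2. PSB27 had a 1.55-fold lower signal in emf2 than in WT (log2 -0.64), and rescued emf2 exceeded emf2 by 1.81-fold (log2 0.86), the widest differences of the 4 photosystem genes in these comparisons. CLPP4, a nuclear-encoded subunit of the plastid Clp protease core, followed the same order of arrays as PSB27, with 3601 in WT, 2573 in emf2, 4366 in transWT and 3512 in rescued emf2, except that rescued emf2 lay 1.03-fold below WT, a difference that changed direction between scalings.

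**Figure D1:**
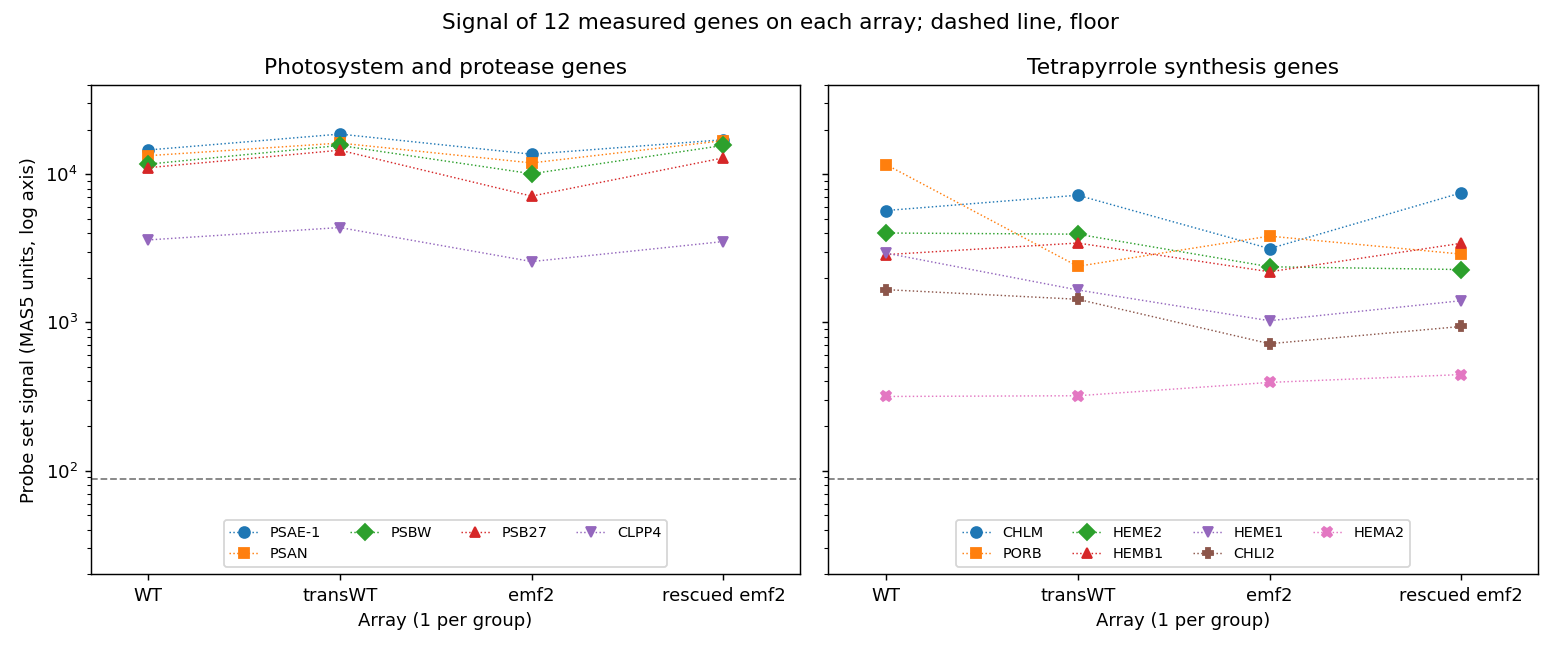
Signal of the 12 measured members on each array (MAS5 units, log axis), 1 point per array; dotted lines join the points of a gene and the dashed line is the floor of 87.6. The photosystem genes and CLPP4 dip on the emf2 array, whereas PORB is high in WT alone, at 11619 against 2390 to 3820 on the other arrays.

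Along the tetrapyrrole route the genes did not share one pattern. HEMA2, a glutamyl-tRNA reductase of the committed step whose expression is known mostly outside green tissue, had a signal of 317 in WT, 394 in emf2, 320 in transWT and 445 in rescued emf2. It was the single measured member with a higher signal in emf2 than in WT, by 1.24-fold. HEMB1, a 5-aminolevulinate dehydratase, read 2865 in WT, 2196 in emf2, 3432 in transWT and 3418 in rescued emf2, the order seen for the photosystem genes.

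HEME1 and HEME2 are both named for uroporphyrinogen decarboxylase, the step before the route turns to protoporphyrin. HEME1 had 2934 in WT, 1026 in emf2, 1655 in transWT and 1401 in rescued emf2. HEME2 had 4009 in WT, 2374 in emf2, 3938 in transWT and 2273 in rescued emf2. The paralogs differed on the transWT array: HEME1 was 1.77-fold lower than in WT there and HEME2 1.02-fold lower. HEME2 was low on both arrays of the emf2 background, and rescued emf2 was 1.04-fold below emf2.

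In the magnesium branch, CHLI2, one of the genes for the I subunit of magnesium chelatase, read 1663 in WT, 718 in emf2, 1432 in transWT and 939 in rescued emf2. CHLM, the methyltransferase of magnesium protoporphyrin IX that acts directly after the chelatase, read 5684 in WT, 3145 in emf2, 7211 in transWT and 7490 in rescued emf2. Both genes were lowest in emf2, but in rescued emf2 CHLI2 was still 1.77-fold below WT while CHLM was 1.32-fold above it. PORB, which reduces protochlorophyllide in the light and is active in green as well as dark-grown seedlings, read 11619 in WT, 3820 in emf2, 2390 in transWT and 2890 in rescued emf2. WT was highest and transWT lowest, an order that no other measured member showed.

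For emf2 over WT, read for the mutation without the transgene, 3 members had a signal at least 2-fold lower and 0 a signal at least 2-fold higher. PORB was 3.04-fold lower (log2 -1.60), HEME1 2.86-fold lower (-1.52) and CHLI2 2.32-fold lower (-1.21), all 3 from tetrapyrrole synthesis. Over all 14653 probe sets tested, 11.1% were at least 2-fold lower and 7.34% at least 2-fold higher. The members' median log2 ratio was -0.56, against -0.05 over all probe sets tested, and 11 of the 12 had a ratio below 0, against 53.0% of all. By role, the median was -0.85 over 7 measured tetrapyrrole genes and -0.19 over the 4 photosystem genes. CHLM was next below the threshold at 1.81-fold, followed by HEME2 at 1.69-fold and PSB27 at 1.55-fold.

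The direction of small differences depended on scaling. With each array scaled to its median, which moved the median of all probe sets from -0.05 to 0.15, PSAE-1 (log2 0.12) and PSAN (0.05) turned higher in emf2 and 9 of the 12 members stayed below 0. The balance of all probe sets turned too, to 8.01% lower and 11.0% higher by at least 2-fold. Quantile normalization and cyclic loess left 11 below 0. PORB, HEME1 and CHLI2 stayed at least 2-fold lower under all 3 other scalings, with CHLI2 at -1.0 after median scaling.

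Most of the named markers of green and root tissue moved with this comparison. Of 8 green tissue markers 3 were named, the Calvin cycle genes RCA, PRK and SBPASE, and their summed signal was 35993 in WT, 19360 in emf2, 47686 in transWT and 40052 in rescued emf2. Of 7 root markers 3 were named, PYK10, EXPA7 and EXPA18. Their summed signal lay between 15775 in WT and 18754 in rescued emf2, with 18206 in emf2. Most of it was PYK10 (15178 in WT and 16103 in emf2). In emf2 over WT the root hair expansins EXPA18 and EXPA7 stood at 4.19-fold and 2.67-fold, both higher. PYK10 was 1.06-fold higher (log2 0.09), which is less than the measurement error of 0.27. The green tissue genes were lower, RCA at a log2 ratio of -0.39, PRK at -1.39 and SBPASE at -1.64. The part of tissue composition in the members' ratios was not tested.

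For transWT over WT, which holds the transgene and hygromycin in the wild-type background, PORB was the single member past 2-fold, at 4.86-fold lower (log2 -2.28). HEME1 came next at a log2 ratio of -0.83, and the other 10 measured members lay between -0.22 and 0.42. Across 14620 probe sets tested 5.32% were at least 2-fold lower and 3.88% at least 2-fold higher, and with median scaling 3.66% and 5.57%. The members' median was 0.27, against -0.07 over all tested.

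All 4 photosystem genes were higher in transWT, from PSAN (log2 0.28) to PSBW (0.42), with a median of 0.37. That is close to the median of 0.35 over all probe sets above 10000, 88.6% of which were higher in transWT. After quantile normalization the photosystem median was 0.04 and 2 of the 4 genes, PSAE-1 (-0.02) and PSAN (-0.02), turned lower; after cyclic loess the median was 0.14 with 4 of 4 higher. CHLM (0.34), CLPP4 (0.28) and HEMB1 (0.26) were also higher, in a range of signal from 1000 to 10000 where the median of all 3322 measured probe sets was 0.03. They stayed above 0 under every scaling tried, but CHLM only just passed the measurement error of 0.33 and CLPP4 and HEMB1 lay within it. PORB (-2.28), HEME1 (-0.83), CHLI2 (-0.22) and HEME2 (-0.03), in the same range of signal, were lower.

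For rescued emf2 over emf2, the same transgene with hygromycin in the mutant, CHLM was 2.38-fold higher (log2 1.25) and no member was at least 2-fold lower. Over the 14122 probe sets tested 4.97% were at least 2-fold lower and 5.85% at least 2-fold higher. The members' median was 0.45, against -0.06 over all tested, and 10 of the 12 were above 0, against 45.1% of all. Above a signal of 10000, where the 4 photosystem members lie, 88.6% of all probe sets were above 0. PORB (-0.40) and HEME2 (-0.06) were the members below 0. CHLM stayed past 2-fold under each scaling, between 1.10 and 1.29. Tissue markers moved here as well: on the log2 scale the green tissue genes SBPASE (1.56), RCA (1.0) and PRK (0.79) were higher in rescued emf2, and of the root genes EXPA18 (-1.57) and EXPA7 (-1.07) were lower while PYK10 was at 0.16. Their part in the members' ratios was not tested.

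The photosystem genes were higher by between 0.32 (PSAE-1) and 0.86 (PSB27) on the log2 scale, with a median of 0.57, against 0.41 for all probe sets above 10000. After quantile normalization the photosystem median was 0.29, with PSAE-1 at -0.01, and the median of those bright probe sets was 0.08. In the range from 1000 to 10000, where the median of all was -0.01, HEMB1 stood at 0.64, HEME1 and CLPP4 at 0.45 each and CHLI2 at 0.39.

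**Figure D2:**
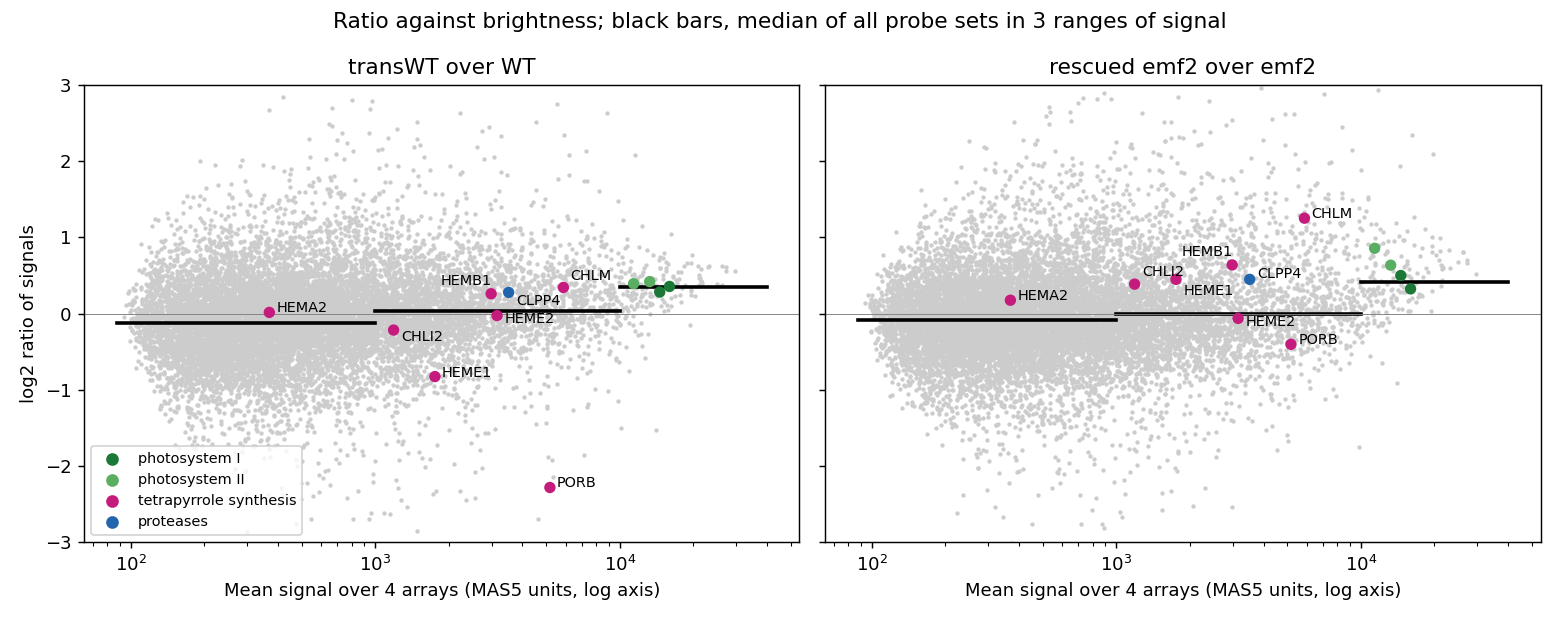
Log2 ratio against mean signal (log axis) for transWT over WT (left) and rescued emf2 over emf2 (right); grey points are the 12145 probe sets over the floor on every array, of which 24 and 27 lie beyond a log2 ratio of 3 and are not drawn, and black bars are medians of all probe sets in 3 ranges of signal. The 4 photosystem genes (green) lie near the bar of the brightest range in transWT over WT, while PORB lies far below its range there and CHLM above its range in rescued emf2 over emf2.

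The emf2 array had the lowest signal for 9 of the 12 members, against 28.4% of all 12145 probe sets over the floor on every array. The exceptions were HEMA2, lowest in WT, PORB, lowest in transWT, and HEME2, lowest in rescued emf2. The count was 7 with median scaling, 8 after quantile normalization and 9 after cyclic loess. As scaled here, the 9 genes lowest in emf2 were necessarily also below WT in emf2 and above emf2 in the rescued seedlings, so this is no further result. Of all those probe sets 30.8% had this pair of directions, and both ratios contain the one emf2 array. Neither this share nor the 28.4% is matched for signal. Above 10000, where the 4 photosystem members lie, 88.6% of probe sets were higher in transWT than in WT. In that range 88.6% were also higher in rescued emf2 than in emf2, and the share lowest in emf2 was not counted.

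Rescued emf2 over WT holds the emf2 background, the transgene and hygromycin together, so it does not isolate what differed after rescue. It gave 2 members at least 2-fold lower, PORB (4.02-fold, log2 -2.01) and HEME1 (2.09-fold, log2 -1.07), and none on the higher side. In transWT over WT these genes stood at -2.28 and -0.83, and in rescued emf2 over transWT at 0.27 and -0.24. Among 14593 probe sets tested 9.90% were at least 2-fold lower and 5.91% at least 2-fold higher; this balance depended on scaling, with 5.77% lower and 9.68% higher after median scaling and 7.54% and 7.33% after quantile normalization. HEME1 was within 2-fold (-0.81) with each array scaled to its median. CHLI2 and HEME2 followed at -0.82 each. The members' median was 0.23, against -0.10 over all tested, and it turned to -0.05 after quantile normalization and -0.09 after cyclic loess, so no common direction can be given. Among the photosystem genes, PSAE-1 (0.23) turned to -0.10 and -0.11 and PSB27 (0.22) to -0.01 and -0.07 under these scalings. PORB was thus at least 2-fold lower than WT on each of the other 3 arrays, which was the case for 1.39% of probe sets; the 3 ratios have the WT array in common.

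With the transgene and hygromycin on both sides, in rescued emf2 over transWT, no member was at least 2-fold different, while 2.99% of 14250 probe sets tested were lower and 2.26% higher by that much. HEME2 had the lowest ratio (log2 -0.79, a 1.73-fold lower signal), followed by CHLI2 (-0.61), and HEMA2 the highest (0.47). The members' median was -0.07 and that of all probe sets -0.03. With each array scaled to its median these turned to 0.03 and 0.06. The balance of all probe sets then turned to 2.29% lower and 2.95% higher by at least 2-fold. CHLM (0.05), HEMB1 (-0.01), PSAN (0.05) and PSBW (0.00) were close to equal on the 2 arrays.

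**Figure D3:**
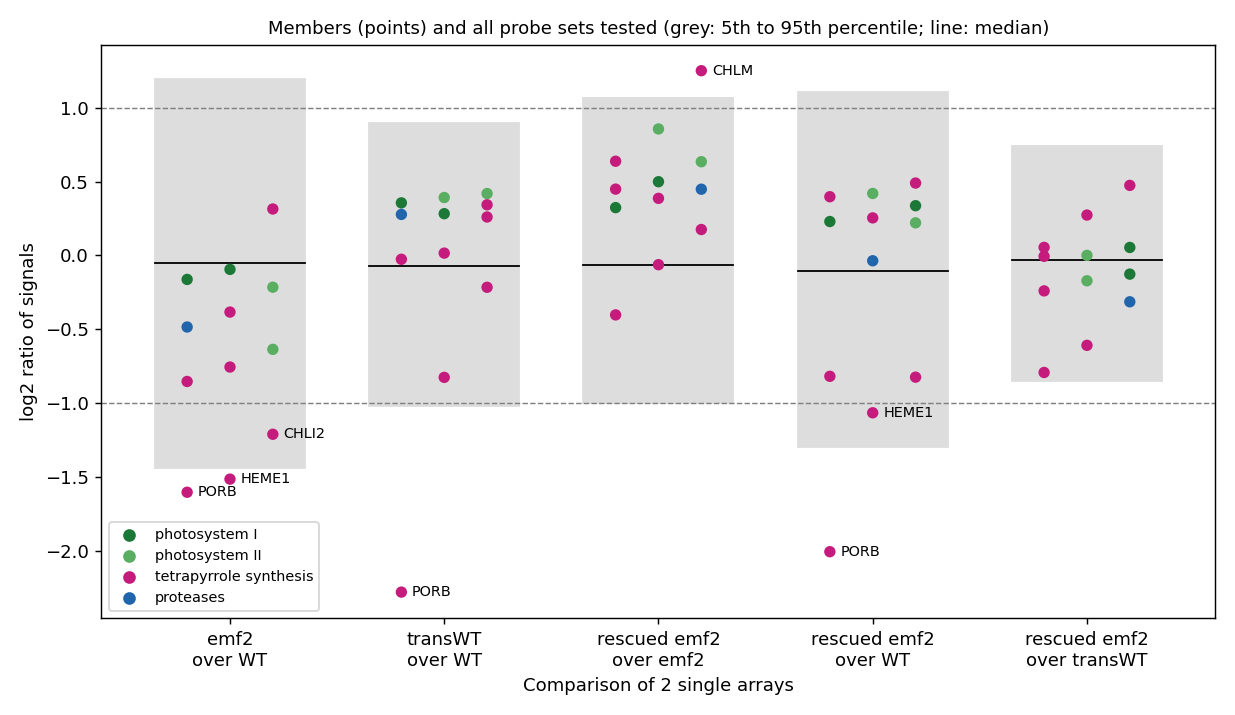
Log2 ratios of the 12 measured members (points, coloured by role) in 5 comparisons of single arrays, over the 5th to 95th percentile (grey) and median (black line) of all probe sets tested; dashed lines mark 2-fold. Members past 2-fold carry their names: PORB, HEME1 and CHLI2 on the lower side and CHLM on the higher.

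The mutant difference can be set side by side without and with the transgene, from pairs that have no array in common. Subtracting the log2 ratio of emf2 over WT from that of rescued emf2 over transWT gave a median of 0.30 over the members, against 0.01 over 12145 probe sets, and a value above 0 for 10 of the 12 (10 to 12 over the scalings tried). A value above 0 means a less negative or more positive ratio where both seedlings carried the transgene. The share of all probe sets above 0 was not counted. Each value carries the measurement errors of both ratios, 0.27 for emf2 over WT and 0.35 for rescued emf2 over transWT. HEMA2 (0.16), CLPP4 (0.17), PSAN (0.22) and PSBW (0.22) lay below either error. PORB (1.88) and HEME1 (1.28) passed 1, as did 5.37% of all probe sets, and CHLM (0.91), CHLI2 (0.60) and PSB27 (0.46) followed. For PORB (2390 and 2890) and HEME1 (1655 and 1401) both transgene arrays were below WT. For CHLM (7211 and 7490) both were above WT. PSAE-1 (-0.03) and HEME2 (-0.04) had nearly the same mutant ratio in both pairs.

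**Figure D4:**
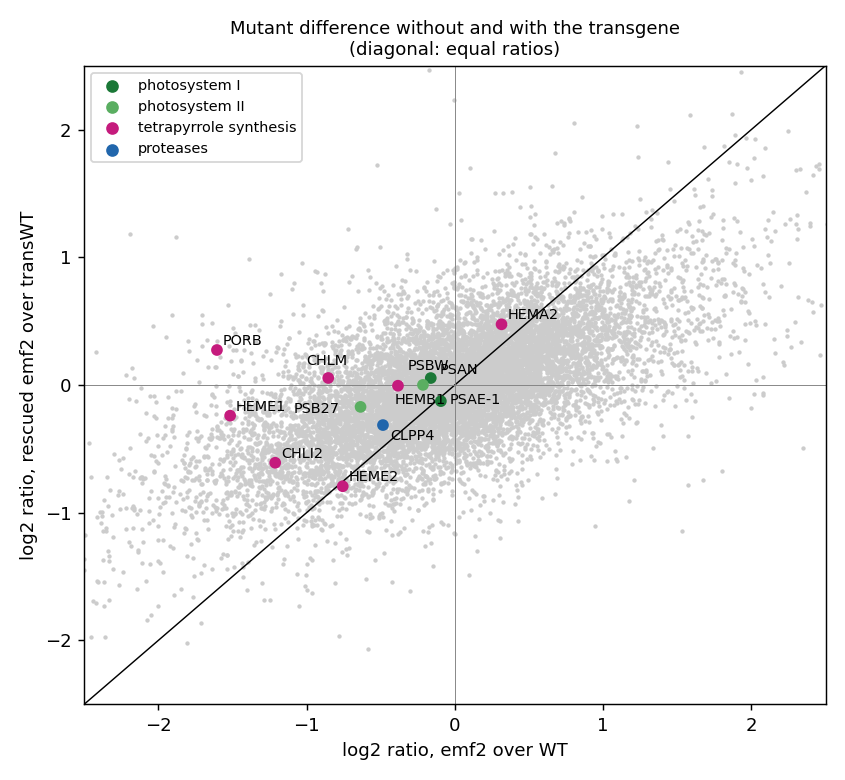
Log2 ratio of rescued emf2 over transWT against that of emf2 over WT; coloured points are the 12 measured members, grey points the 12145 probe sets over the floor on every array (124 beyond 2.5 on either axis are not drawn), and the diagonal marks equal ratios. PORB and HEME1 lie farthest above the diagonal and HEME2 on it.

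Other genes of the same pathways were looked up by symbol. Of 35 symbols for chlorophyll and heme synthesis and breakdown 2 were named, of 17 for regulators of chloroplast genes 1, and of 25 for plastid protein handling and 27 for plastid transcription 0. GSA1, which makes 5-aminolevulinate after the HEMA step, read 1599 in WT, 1254 in emf2, 1514 in transWT and 1116 in rescued emf2, and no comparison reached 2-fold. NOL, of chlorophyll b breakdown, was within 2-fold as well, with 373, 347, 454 and 437 in the same order. HYH, a bZIP regulator related to HY5 that acts in light signalling, read 159 in WT, 39.6 in emf2, below the floor, 460 in transWT and 222 in rescued emf2. It was 2.89-fold higher in transWT than in WT, and rescued emf2 exceeded emf2 by at least 2.54-fold. Rescued emf2 was also 2.07-fold below transWT. Of 5 reference genes 2 were named, GAPC2 and UBC21, and neither reached 2-fold in any comparison. In emf2 over WT UBC21 stood at a log2 ratio of 0.62 and GAPC2 at 0.09. In transWT over WT GAPC2 stood at 0.55 and UBC21 at 0.22.

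The 4 excluded relatives PSBY, LHCB4.1, LHCB4.2 and LHCB4.3 and the plastid-encoded photosystem genes were set beside the photosystem members, without a test. These sets were not matched for signal. The plastid-encoded genes spanned mean signals from 52.07 (psbN) to 19290 (psbM), while all 4 photosystem members lay above 10000. In emf2 over WT the median log2 ratio was -0.19 for the 4 nuclear photosystem members, -0.61 for the 4 relatives and -1.31 for 19 measured plastid-encoded photosystem genes, of which 11 were at least 2-fold lower. In rescued emf2 over transWT the plastid-encoded genes had a median of -0.56, with 7 of 20 at least 2-fold lower. The nuclear photosystem members had -0.06 with 0 of 4, and the 4 relatives had -0.13 with 1 of 4, LHCB4.3 (log2 -1.16). Of all probe sets tested in that comparison 2.99% were at least 2-fold lower.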

How the data were processed

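Per the labels' protocols, 10 µg of total seedling RNA was labelled for each array, and 1 array was made for each group. The deposited values are intensity summaries; the submitters' processing notes name MAS5, without version or settings. The deposited arrays had equal 2%-trimmed means. They were rescaled to that mean, floored at 87.6, the 40th percentile of 22746 non-control probe sets, and compared as log2 ratios of single arrays with a 2-fold threshold and no test. Where neither array exceeded the floor, a probe set was left out. Probe sets were named from the platform annotation, with 13513 of 22810 assigned 1 gene, of which 13436 matched current loci (TAIR10.1, names only). Ratio calling was tested on simulated data. Python 3.11.15, pandas 2.3.3 and, for cyclic loess, limma 3.58.1 were used. The members, lists, floor and threshold were chosen with earlier results of these data known, and the 3 signal ranges after seeing the values. Every member may be named. Signals are printed for members past 2-fold, all tetrapyrrole members and one or more per role; the rest were added after their values were seen. Alternatives were 3 scalings, floors at the 25th or 60th percentile, a pseudocount of 1 in place of the floor, and the mean of a gene's probe sets. No promoter or protein sequence was used here.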

Additional observations from a re-analysis of the deposited data

Results flagged for a closer look

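In 4 members the ratios of emf2 over WT and of rescued emf2 over transWT pointed in opposite directions, and this difference was not tested, since each ratio comes from 1 pair of arrays. PORB was lower in emf2 (log2 -1.60) and higher in rescued emf2 (0.27), a difference of 1.88, with the same signs under all scalings tried. CHLM had -0.85 and 0.05, a difference of 0.91; the second ratio turned to -0.01 after cyclic loess. PSAN (-0.16 and 0.05) and PSBW (-0.22 and 0.00) each differed by 0.22, which is less than the measurement error of a log2 ratio (0.27 for emf2 over WT and 0.35 for rescued emf2 over transWT), and signs of both genes changed between scalings.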

How the results depend on the processing

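Under 3 other scalings, 178 of 180 log2 ratios of the measured members moved by less than the measurement error, yet 13 of 60 member ratios, none of them past 2-fold, did not keep one sign over the scalings. The ratios that moved by more were those of PSAE-1 in transWT over WT and in rescued emf2 over emf2 after quantile normalization, and no ratio past 2-fold changed sign. The 180 ratios are not separate checks, because median scaling shifts all 12 members of a comparison by the same amount. The measurement error reflects scatter between probe sets on the same arrays, so it is not a measure of such shifts. The other floors, the pseudocount and the mean of probe sets could hardly move these 12 members, which lie far above the floor with 1 probe set each (at most 0.0013). Of the 2-fold calls 1 changed: with each array scaled to its median the members at least 2-fold lower in rescued emf2 over WT went from 2 to 1, as HEME1 came within 2-fold. With a pseudocount of 1 and no floor, the 3 dim members entered, which by construction raised the counts: 5 instead of 3 members were lower in emf2 over WT, 3 instead of 1 lower and 1 instead of 0 higher in transWT over WT, 2 instead of 1 higher and 1 instead of 0 lower in rescued emf2 over emf2, 3 instead of 2 lower in rescued emf2 over WT, and 1 instead of 0 higher and 1 instead of 0 lower in rescued emf2 over transWT. No paired analysis was possible because each group has 1 array and the labels give no replicate numbers. Variation between plantings, lines and arrays cannot be separated from any ratio.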
